A study of Mus musculus with 28 samples.

Results

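Fragments of the transfer RNAs for valine, lysine and histidine were followed in the circulation of aging mice. All rows of the deposited small RNA table whose name begins with tRNA-Val, tRNA-Lys or tRNA-His were taken, which gave 63 of 408 tRNA rows and of 80668 RNAs in all. Of these 63 rows, 21 were tRNA-Val (8 with the anticodon AAC, 10 with CAC and 3 with TAC), 32 were tRNA-Lys (19 CTT and 13 TTT) and 10 were tRNA-His, all with GTG. Counts were also summed over the rows of an anticodon, and each sum was set against all tRNA counts of its library.

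The samples came from 14 female wild-type C57BL/6N mice, with 3 animals aged 2 months, 4 aged 6 months, 3 aged 8 months and 2 each aged 12 and 18 months. From the platelet-free plasma of each mouse, ultracentrifugation gave a pellet enriched in extracellular vesicles (EV fraction, called EV here) and the EV-depleted supernatant (called plasma here), with 1 small RNA library for each, 28 in all. The labels name no treatment under study and state that samples were not pooled. All mice were wild type and of 1 sex, and the EV pellet was made by 1 spin without further purification, so it may hold particles other than vesicles. Plasma replicates 2 and 3 at 2 months carry 1 shared code that joins the numbers of both mice, so their pairing with EV libraries rests on the replicate number and is uncertain.

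A tRNA carries an amino acid to the ribosome and reads the codon with the 3 bases of its anticodon. Cells cut tRNAs into shorter pieces, and cleavage in the anticodon loop by ribonucleases such as angiogenin gives a 5′ and a 3′ piece. Such pieces are among the abundant small RNAs of blood, where they occur in vesicles and outside them, and 5′ pieces of tRNA-Val and tRNA-His are often seen in sequencing of cell-free RNA. Several anticodons may serve 1 amino acid, and such tRNAs are called isoacceptors.

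The sequence of a tRNA gene shows only those bases of a fragment that the gene encodes. A gene of 1 valine and of 1 histidine isoacceptor lay in a reference window of the build that the submitters' notes name. RefSeq (GRCm38) lists 59 tRNA genes whose name codes for these 3 amino acids, 22 for valine, 26 for lysine and 11 for histidine. The valine genes cluster on chromosome 13, which holds 10 of them, and chromosome 3 holds 6 of the histidine genes. The Val-CAC gene n-TVcac9 lies on the minus strand at chr13:23446142-23446214 and is printed whole. Of the His-GTG gene n-THgtg7, on the plus strand at chr3:96452495-96452566, the first 62 of 72 bases are printed, which lie at chr3:96452495-96452556. Both sequences read 5′ to 3′, and capitals mark the anticodon, at bases 34 to 36 of each gene.
n-TVcac9: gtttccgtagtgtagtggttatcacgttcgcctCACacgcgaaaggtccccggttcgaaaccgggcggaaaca
n-THgtg7: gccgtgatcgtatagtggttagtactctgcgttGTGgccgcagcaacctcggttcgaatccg
The table does not pair its row names with these genes, and it does not state which part of a tRNA its reads covered. A value below is therefore the number of reads counted on a tRNA, whichever piece they came from.

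Many of the 63 rows held the same numbers. Copies of 1 sequence name, such as the 8 rows tRNA-His-GTG-2-1 and onward, carried identical counts in all 28 libraries, so that 33 distinct sets of values remained under 33 names, 10 of them with several copies. Across all tRNAs, 184 of 408 rows repeated another. Beyond the copies, tRNA-Val-AAC-1 and tRNA-Val-CAC-2 had nearly equal counts in every library (ratio 0.995 to 1.01), and so did tRNA-Val-AAC-3 and tRNA-Val-CAC-3 (0.996 to 1.00). Reads of these Val-AAC and Val-CAC pairs could not be assigned to 1 isoacceptor from the table. A sum over rows counts such reads once per copy, so some results on sums are also given with identical rows counted once. That counting keeps both rows of each near-equal pair.

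Total counts ran from 4764338 to 52753818 in the EV libraries and from 928651 to 23905651 in the plasma libraries. tRNA rows held 32.1% ± 12.0 of all counts in EV and 61.5% ± 11.1 in plasma (SD, n = 14 each), while rRNA rows held 39.4% ± 11.8 and 11.04% ± 4.19. These tRNA percentages include every identical row and are not given with such rows counted once. In plasma replicate 2 at 12 months, tRNA counts were 17247234 with every row and 5182823 with identical rows counted once. The Val, Lys and His rows took 29.2% ± 3.97 of the tRNA counts in EV and 28.9% ± 4.37 in plasma. With identical rows counted once they took 24.7% ± 3.76 and 25.0% ± 4.09. Both rows of each near-equal Val-AAC and Val-CAC pair are still counted in these values. Even the shallowest library, plasma replicate 1 at 6 months, held 155591 counts on the 63 rows, and no row was at 0 in all libraries. With identical rows counted once, that library had 162138 tRNA counts, of which these tRNAs took 25.4%. Only tRNA-Val-AAC-6, the rarest with 331 counts in total, was at 0 in a library, and in that 1 library alone.

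tRNA-His-GTG was the leading anticodon of both fractions. Its sum ranked first of 51 anticodons in EV, at 9.11% to 20.7% of tRNA counts with a median of 15.7%, and first in plasma, at 10.3% to 18.5% with a median of 13.4%. With identical rows counted once it was at place 1 in EV and place 3 in plasma, at 8.92% ± 1.82 and 8.21% ± 1.58 (SD, n = 14). Its sequence with the most counts was tRNA-His-GTG-2, with 8 copies. On the depth-scaled read counts of the authors (RPM), tRNA-His-GTG-2 lay between 3779 and 31522 in EV (median 8454) and between 7265 and 38694 in plasma (median 16149).

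Val-CAC ranked at place 5 and Val-AAC at place 10 in both fractions. Val-CAC made up 4.96% to 11.6% of tRNA counts in EV (median 6.27%) and 6.04% to 14.8% in plasma (median 7.98%). Val-AAC made up 2.42% to 5.84% in EV (median 3.12%) and 2.87% to 6.93% in plasma (median 3.83%). Val-TAC was the rarest of the valine isoacceptors, with medians of 0.485% in EV and 0.491% in plasma. Both lysine isoacceptors stood near 1%: Lys-CTT had a median of 1.23% in EV and 0.949% in plasma, and Lys-TTT of 1.29% and 1.02%. The means of Lys-CTT and Lys-TTT lay within 1 SD of each other in both fractions. They were 1.23% ± 0.178 and 1.26% ± 0.245 in EV, and 0.987% ± 0.243 and 1.05% ± 0.211 in plasma. Whether Lys-CTT and Lys-TTT differ within libraries was not tested. The order of Val-AAC and Val-CAC depends on how copies are counted. With identical rows counted once, Val-AAC was above Val-CAC, at 7.10% ± 1.89 against 6.00% ± 1.51 in EV.

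The first comparison asked how the 2 fractions of a mouse differed. As shares of tRNA counts, the histidine and both lysine isoacceptors were higher in EV and the major valine isoacceptors were lower. His-GTG held 15.5% ± 3.14 of tRNA counts in EV and 14.1% ± 2.80 in plasma, higher in EV in 11 of 14 mice (adjusted p = 0.0158, exact sign-flip test within mice, two-sided, adjusted over 51 anticodons). Lys-CTT was 1.23% in EV against 0.987% in plasma and higher in EV in 13 of 14 mice (adjusted p = 0.00125, same exact test). Lys-TTT was higher in EV in 12 of 14 mice (adjusted p = 0.00519, exact). Val-CAC fell from 8.29% ± 2.28 in plasma to 7.07% ± 1.96 in EV, with 12 of 14 mice lower (adjusted p = 0.00519, exact). Val-AAC was 3.55% in EV and 3.96% in plasma, lower in 11 of 14 mice (adjusted p = 0.0251, exact). This last call did not hold with identical rows counted once (adjusted p = 0.0846, exact, 10 of 14 mice lower), nor without the 2 uncertain pairs at 2 months (adjusted p = 0.0557, exact, 9 of 12 mice lower). Val-TAC, at 0.522% ± 0.127 and 0.508% ± 0.0950, did not pass the test (adjusted p = 0.803, exact, 7 of 14 mice higher).

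Such differences were common among tRNAs. By the same test 49.0% of the 51 anticodons were higher in EV and 19.6% were lower, beside 3 of the 6 Val, Lys and His sums higher and 2 lower, so the number of calls is not particular to these 6. Val-AAC and Val-CAC are not independent, since their shares correlated over mice at r = 0.996 in EV and 0.998 in plasma. The 2 fractions overlapped for all 6 anticodons. The ratio of EV to plasma within a mouse had a geometric mean of 1.27 for Lys-CTT, 1.20 for Lys-TTT, 1.10 for His-GTG, 0.890 for Val-AAC and 0.850 for Val-CAC.

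**Figure D1:**
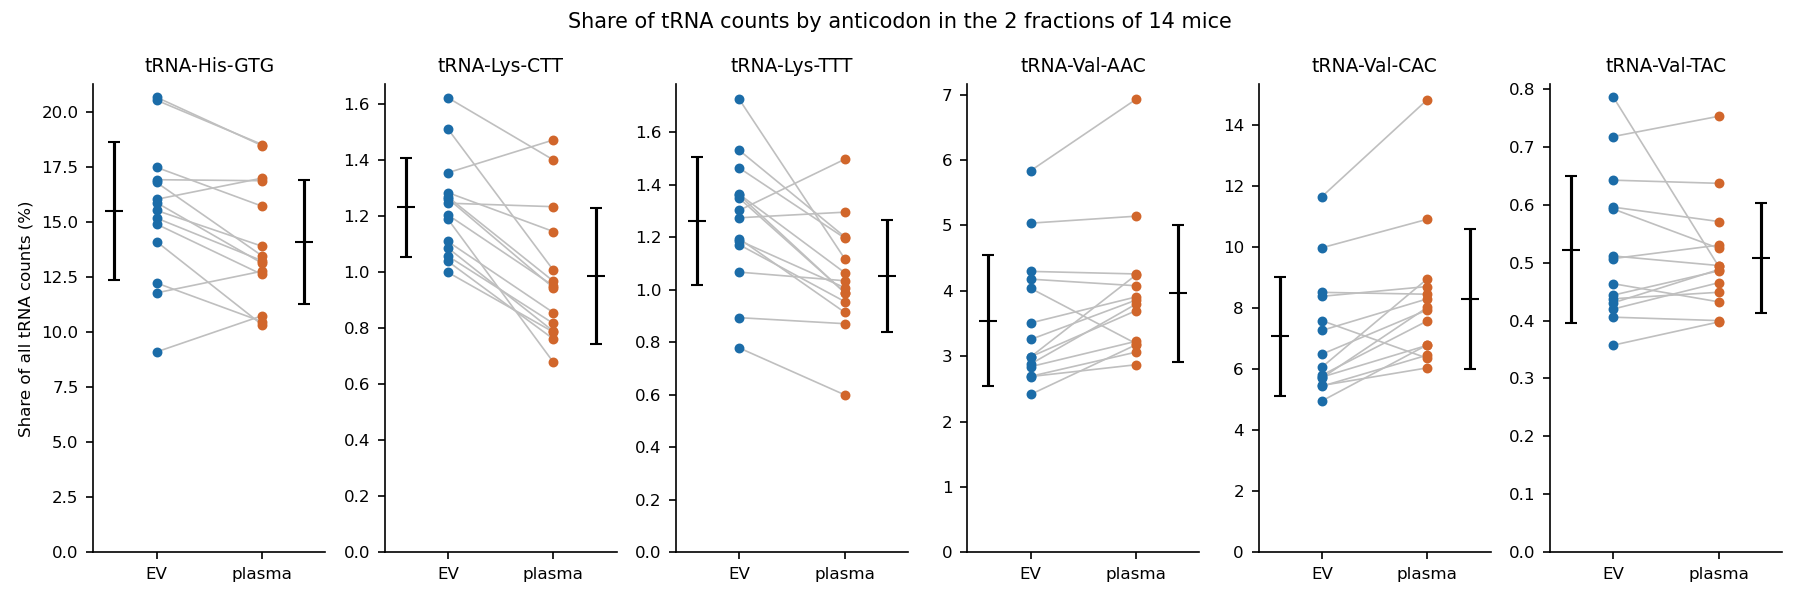
Share of all tRNA counts (%, y axis) of each of the 6 anticodon sums in the EV and plasma libraries of the same 14 mice. Each point is a library, grey lines join the libraries of a mouse, and the bars beside the points give the mean ± SD. Lines slope down from EV to plasma in 13 of 14 mice for Lys-CTT and up in 12 of 14 for Val-CAC.

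Against all counts of a library, each of the 6 anticodons was lower in EV. Every identical row was counted here, both in the sums and in the total. Val-CAC took 2.16% ± 0.785 of all counts in EV and 5.00% ± 1.17 in plasma, lower in 14 of 14 mice (adjusted p = 0.000389, exact sign-flip test). His-GTG took 4.92% ± 2.01 and 8.55% ± 1.75, lower in 13 of 14 mice (adjusted p = 0.000445, exact). The geometric mean ratio of EV to plasma was lowest for Val-CAC, 0.416, and highest for Lys-CTT, 0.621. The direction for His-GTG, Lys-CTT, Lys-TTT and Val-TAC thus turned with the denominator, whereas Val-CAC and Val-AAC were lower in EV on both. These last 2 are not independent, since their leading rows held nearly equal counts. rRNA rows took 39.4% ± 11.8 of all counts in EV and 11.04% ± 4.19 in plasma, and their part in these differences was not tested. How many cells released the fragments, and how much each released, cannot be told from cell-free samples.

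Single rows were then tested on counts across all RNAs (edgeR quasi-likelihood test, trimmed mean of M values (TMM) over all RNAs, age as covariate, Benjamini-Hochberg adjustment over 22323 RNAs). Of the 63 rows, 1 was higher in EV and 0 were lower, where 10.0% of all RNAs were higher and 7.08% lower. The row was tRNA-Lys-CTT-14, a single-copy lysine tRNA, with a log2 change of 0.81 ± 0.27 (SE; adjusted p = 0.0382). It is named because it was the only call, since its RPM was higher in EV in only 9 of 14 mice. Its RPM lay between 30.3 and 146 in EV (median 67.5) and between 15.7 and 122 in plasma (median 50.1), so the fractions overlapped. The call was lost without any 1 of 7 mice, namely 2-month replicates 2 and 3, 6-month replicates 1 and 3, 8-month replicate 3, 12-month replicate 1 and 18-month replicate 1. Across the 14 fits that leave out 1 mouse its log2 change lay between 0.73 and 0.90. The call was also lost without a filter on low values and without the 2 uncertain pairs. The log2 change was 0.35 with RPM scaling (adjusted p = 0.290) and 0.14 with TMM over miRNA rows (adjusted p = 0.621). At an unadjusted p under 0.05, 2 of the 63 rows passed, beside 6309 of the 22323 RNAs. With DESeq2 the count was also 1, where 11.4% of all RNAs were higher and 7.29% lower.

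The EV and plasma libraries of a mouse came from 1 blood sample, and with the mouse as a block the SE of tRNA-Val-AAC-1 went from 0.39 to 0.19. In that fit 10 of the 63 rows passed, 2 higher and 8 lower, where 11.1% and 7.53% of all RNAs did. The higher rows were tRNA-Lys-CTT-14 (log2 change 0.88 ± 0.21, adjusted p = 0.00423) and tRNA-Lys-CTT-7 (0.61 ± 0.16, adjusted p = 0.00699). By RPM, tRNA-Lys-CTT-7 was higher in EV in 6 of 14 mice and lower in 8. Without the block its log2 change was 0.067 with RPM scaling and -0.097 with TMM over miRNA rows (edgeR, adjusted p = 0.860 and 0.730). The 8 lower rows belong to 3 valine names, the 2 copies of tRNA-Val-AAC-1 (-0.67 ± 0.19, adjusted p = 0.0142), the 5 copies of tRNA-Val-CAC-2 (-0.67 ± 0.19, adjusted p = 0.0147) and tRNA-Val-CAC-7 (-0.53 ± 0.17, adjusted p = 0.0346). Since the counts of tRNA-Val-AAC-1 and tRNA-Val-CAC-2 are nearly equal, these 7 rows cannot be told apart from 1 measurement. As anticodon sums, 0 of 6 passed without the block, where 7.30% of all features were lower, and Val-AAC (-0.59 ± 0.20, adjusted p = 0.0438) and Val-CAC (-0.65 ± 0.20, adjusted p = 0.0287) passed with it, where 7.29% were. All 3 histidine names stayed between -0.32 and -0.28 with the block, past no threshold (lowest adjusted p = 0.247).

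**Figure D2:**
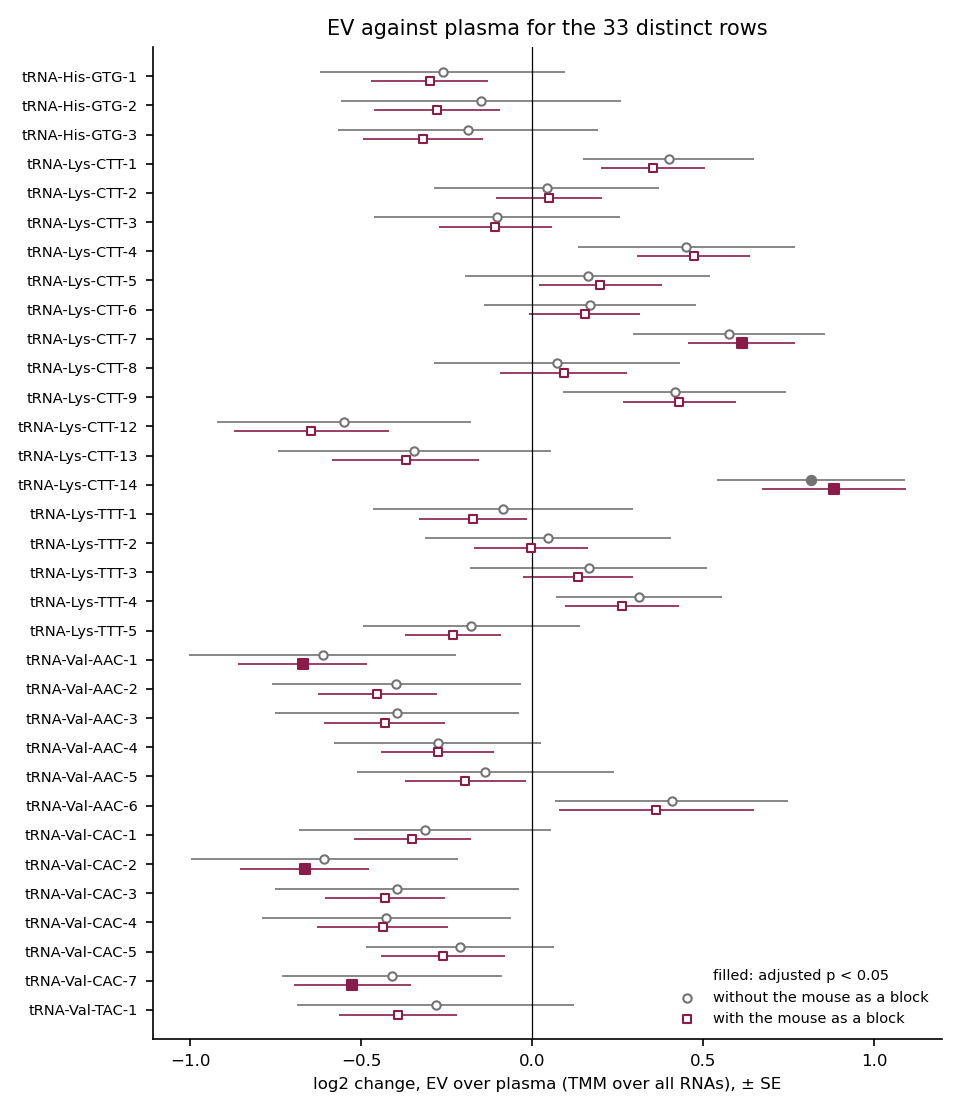
Log2 change of EV over plasma (x axis, ± SE, edgeR with TMM over all RNAs) for the 33 distinct rows, without (circles) and with (squares) the mouse as a block. Filled symbols have an adjusted p under 0.05. The valine names except tRNA-Val-AAC-6 lie left of 0 and 9 of 12 Lys-CTT names lie right of 0 in both fits.

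The number of calls changed with the scaling of the libraries. The median log2 change of all RNAs moved from -0.02 to -0.45 with the scaling of the authors' RPM, to -0.66 with TMM over miRNA rows and to 0.21 with TMM over tRNA rows. On the RPM scale 0 of the 63 rows were higher and 17 lower (background 4.52% and 19.5%). Scaled to miRNAs 0 were higher and 52 lower (background 3.44% and 26.6%), and scaled to tRNAs 2 were higher and 0 lower (background 8.70% and 2.37%). The median of the 63 rows was -0.15 with all RNAs as the reference, -0.63 on the RPM scale, -0.95 against miRNAs and 0.04 against tRNAs. By RPM, Val-CAC was lower in EV in 14 of 14 mice and Lys-CTT in 13 of 14, with median ratios of 0.426 and 0.684.

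Marker miRNAs of blood cells and tissues were read beside this comparison. Summed over 6 red cell miRNAs such as miR-451a, they took 10.1% to 33.9% of miRNA counts in EV and 14.0% to 37.0% in plasma, lower in EV in 10 of 14 mice (p = 0.0857, exact sign-flip test, unadjusted as for the other lists). The 5 platelet miRNAs took 6.53% to 22.2% and 6.61% to 17.7%, lower in EV in 10 of 14 mice (p = 0.952, exact). By RPM each of these 2 lists was higher in EV in 7 of 14 mice. The 3 liver miRNAs took 0.378% to 2.82% and 0.295% to 2.21%, higher in EV in 9 of 14 mice (p = 0.0554, exact). The 4 skeletal muscle miRNAs took at most 0.0994% and 0.119%, lower in EV in 9 of 14 mice (p = 0.890, exact). No miRNA of these lists was at 0 in all libraries. Their part in the differences between fractions was not tested.

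A second measure, free of the scaling of a library, is the make-up of an anticodon, that is, each sequence as a percentage of its own anticodon with identical rows counted once. It was chosen after the values were seen. The test was the exact sign-flip test within mice, adjusted over 215 sequences of all tRNAs, of which 34.0% were higher in EV and 26.5% lower. Of 32 Val, Lys and His sequences, 15 were higher and 6 lower. In each of the 4 anticodons with calls, the most abundant sequence was among the lower ones. The percentages of 1 anticodon have a fixed sum, so a lower percentage of the leading sequence raises the others together, and calls within an anticodon are not independent. Val-AAC and Val-CAC are not independent either, since tRNA-Val-AAC-1 and tRNA-Val-CAC-2, and tRNA-Val-AAC-3 and tRNA-Val-CAC-3, held nearly equal counts in all 28 libraries (within 5%).

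In Val-AAC, tRNA-Val-AAC-1 fell from 69.3% ± 2.37 in plasma to 63.0% ± 2.80 in EV, lower in all 14 mice (adjusted p = 0.000729, exact, from the smallest p that 16384 swaps allow). tRNA-Val-AAC-5 made up 25.9% ± 3.39 in EV against 20.5% ± 2.56 in plasma, higher in all 14 mice at the same exact adjusted p. The other called Val-AAC sequences, tRNA-Val-AAC-2, tRNA-Val-AAC-3 and tRNA-Val-AAC-4, were also higher. In Val-CAC, tRNA-Val-CAC-2 fell from 77.6% ± 0.701 to 74.3% ± 1.33 in all 14 mice, and tRNA-Val-CAC-1 rose from 6.97% ± 0.481 to 8.30% ± 0.402 in 13 of 14. tRNA-Val-CAC-3 and tRNA-Val-CAC-4 were higher as well, each in 12 of 14 mice.

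In Lys-CTT 9 of 12 sequences passed the test, 6 higher and 3 lower. tRNA-Lys-CTT-14 showed the largest ratio of the 12, 1.87, with 4.10% ± 1.41 of Lys-CTT in EV against 2.14% ± 0.486 in plasma, higher in 14 of 14 mice (adjusted p = 0.000729, exact). It was counted 37 to 1407 times in a library. tRNA-Lys-CTT-4 was higher in all 14 mice as well, at 2.71% against 1.97%. tRNA-Lys-CTT-3, the leading sequence with 7 copies, was lower in EV in all 14 mice, at 43.6% ± 2.91 against 47.2% ± 1.93 in plasma (adjusted p = 0.000729, exact). tRNA-Lys-CTT-12, at 0.376% against 0.571%, and tRNA-Lys-CTT-13, at 6.70% against 8.62%, were lower too. In Lys-TTT, tRNA-Lys-TTT-1 was lower (58.0% against 60.4%) and tRNA-Lys-TTT-2 and tRNA-Lys-TTT-3 were higher.

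In His-GTG 0 of 3 sequences passed the test. tRNA-His-GTG-2 held 70.1% ± 4.01 in EV and 69.4% ± 4.35 in plasma (adjusted p = 0.344, exact), tRNA-His-GTG-3 27.2% and 27.9%, and tRNA-His-GTG-1 2.72% and 2.78%. The mean difference for tRNA-His-GTG-2 was 0.736 percentage points with an SD of 2.51 over 14 mice. Whether histidine differs from valine and lysine in this was not tested.

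**Figure D3:**
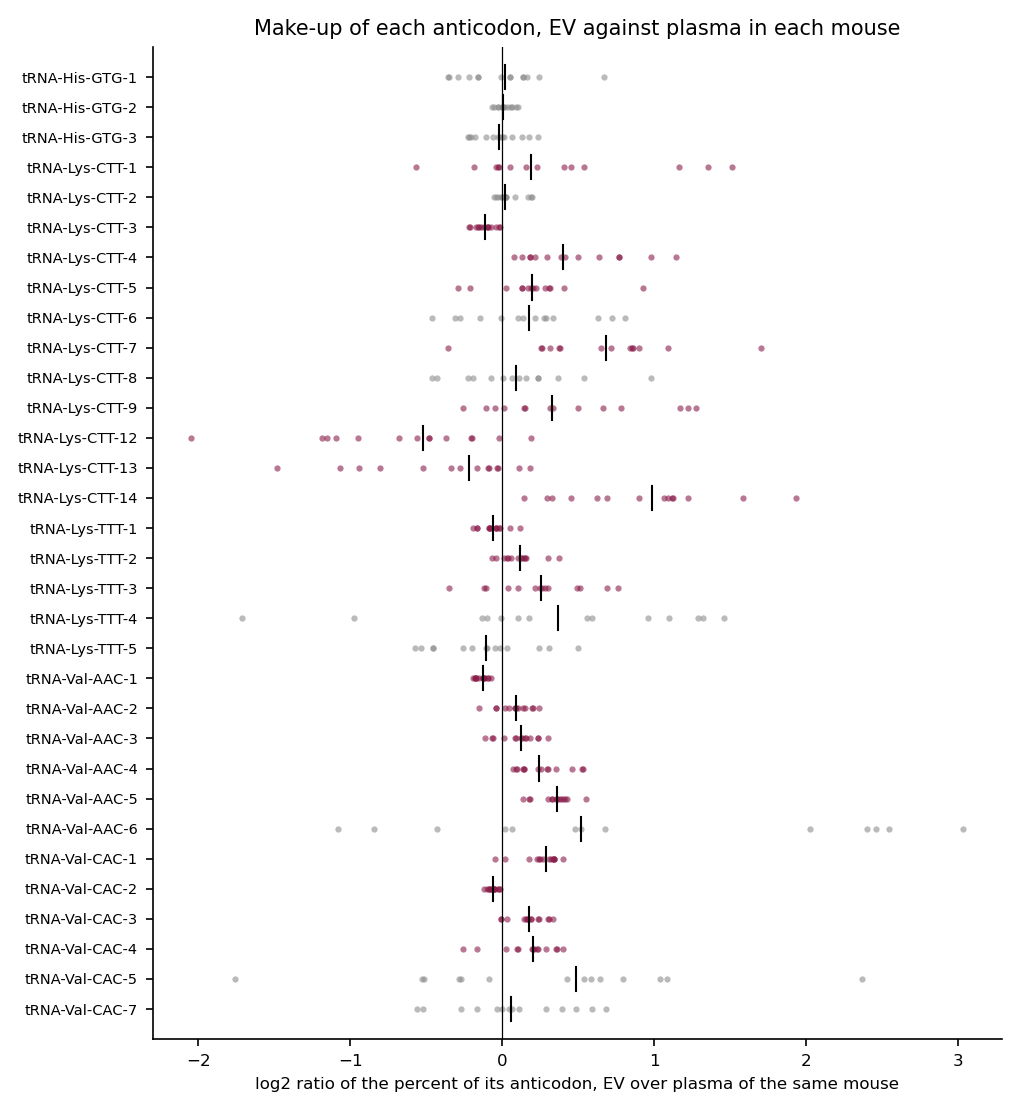
Log2 ratio of EV over plasma of the same mouse (x axis) for the percentage that each of 32 sequences takes of its own anticodon. Points are mice, black bars medians, and coloured points mark sequences with an adjusted p under 0.05 (exact sign-flip test). All 14 points of tRNA-Val-AAC-5 and tRNA-Lys-CTT-14 lie right of 0 and all 14 of tRNA-Val-AAC-1 and tRNA-Lys-CTT-3 left of it. For tRNA-Val-AAC-6 the mouse with a library at 0 is not drawn.

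The shares of a mouse were then compared between its fractions. Over 14 mice, the share of His-GTG in EV correlated with that in plasma with r = 0.849 and a Spearman rank correlation of 0.886 (adjusted p = 0.00119 and 0.00229, permutation test, 51 anticodons). For Val-CAC r was 0.859 and the rank correlation 0.710 (adjusted p = 0.00144 and 0.0213, permutation), and for Val-AAC 0.859 and 0.837 (0.00144 and 0.00364, permutation). Lys-CTT had r = 0.739 and a rank correlation of 0.846 (0.00888 and 0.00364, permutation), Lys-TTT 0.624 and 0.635 (0.0366 and 0.0353, permutation) and Val-TAC 0.722 and 0.8286 (0.00971 and 0.00364, permutation). All 6 thus passed, as did 64.7% of the 51 anticodons by r. The results of Val-AAC and Val-CAC are not independent, since their leading rows held nearly equal counts. Measured as deviations from the mean of each age, r ranged from 0.570 for Lys-CTT to 0.844 for Val-AAC.

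For valine, 2 mice stood apart. Replicates 1 and 3 at 8 months had the highest Val-CAC shares of both fractions, 11.6% and 9.97% in EV and 14.8% and 10.9% in plasma. These libraries also stood at the end of the range in rRNA. Their EV libraries had the highest rRNA of the 14, 61.4% and 50.9% of all counts, and the lowest tRNA, 11.3% and 15.1%. Their plasma libraries had the highest plasma rRNA, 17.4% and 16.6%, and replicate 3 the lowest plasma tRNA, 43.8%. The part of this make-up in the valine shares was not tested. Without these 2 mice, r fell to 0.506 for Val-CAC and to 0.546 for Val-AAC. For His-GTG, r was still 0.809 without the 2 mice farthest from the median, and for Val-TAC it was 0.910. Without the 2 uncertain pairs at 2 months, r was 0.603 for Lys-TTT (adjusted p = 0.0758, permutation) and 0.606 for Val-TAC (adjusted p = 0.0741, permutation), past no threshold. Lys-TTT also missed it with identical rows counted once (r = 0.514, adjusted p = 0.0897, permutation), and its r was 0.424 without replicate 1 at 2 months. This comparison was added after the values were seen.

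**Figure D4:**
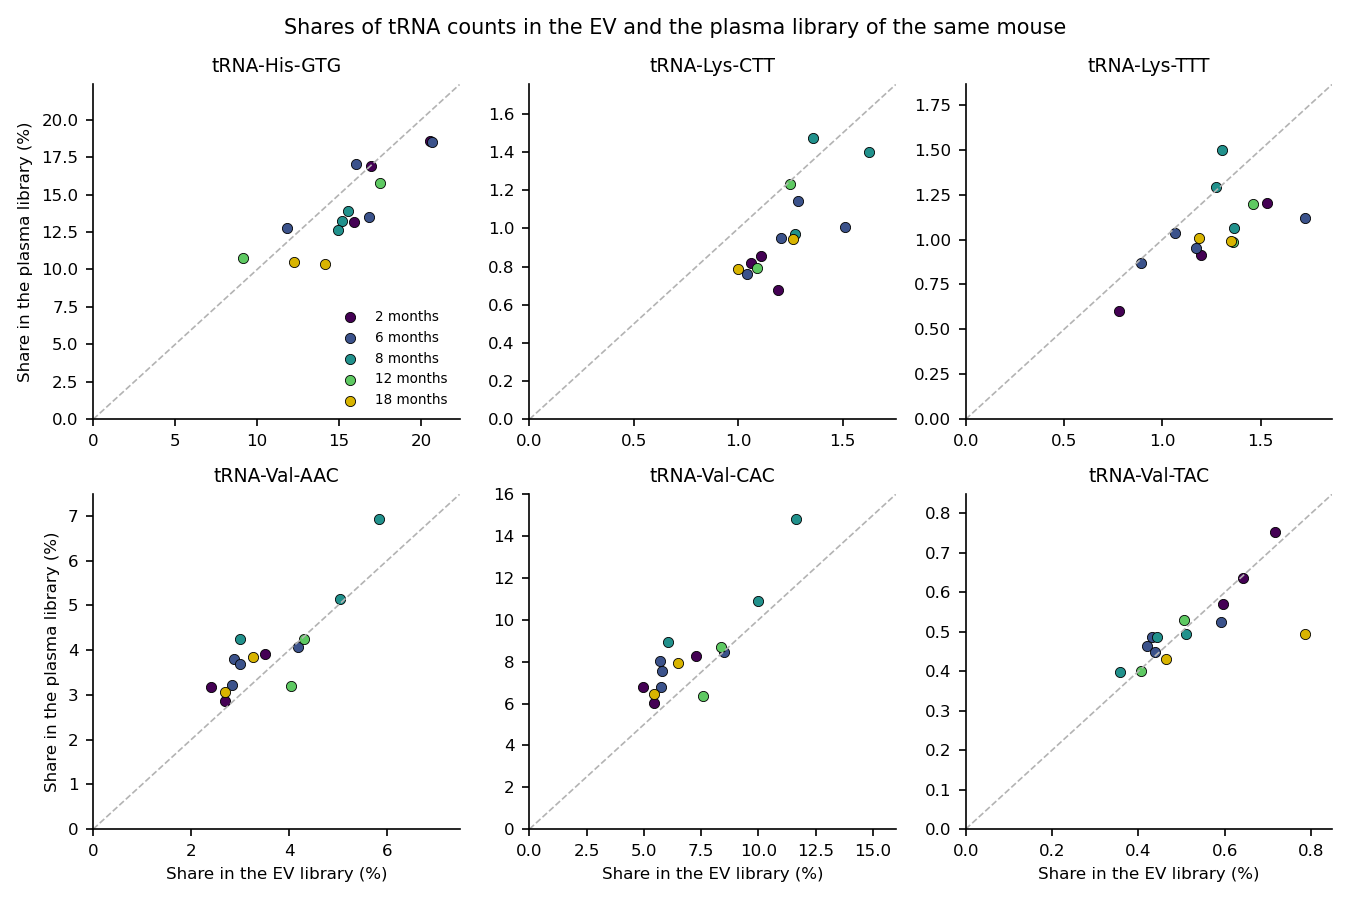
Share of tRNA counts (%) in the EV library (x axis) and the plasma library (y axis) of each of the 14 mice, 1 panel for each anticodon, coloured by age. The dashed line marks equal shares. The 8-month replicates 1 and 3 stand at the upper right for Val-AAC and Val-CAC, and the points of Lys-CTT lie below the line in 13 of 14 mice.

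The second comparison asked whether the fragments changed with age. Of the 6 shares of tRNA counts, 0 passed in either fraction (permutation test of Spearman's rank correlation, 14 mice, adjusted over 51 anticodons, of which 0% passed in EV and 0% in plasma). The correlation farthest from 0 was that of His-GTG in plasma, and it was negative. The 3 mice at 2 months had shares of 13.1%, 16.9% and 18.5%. At 6 months they were 13.5%, 17.0%, 18.5% and 12.8%, and at 8 months 13.9%, 13.3% and 12.6%. The 12-month mice had 10.8% and 15.7%, the 18-month mice 10.5% and 10.3%. Both 18-month libraries were thus below all others, though only just below 1 library at 12 months. The denominator also differed with age, with every row counted. tRNA rows held 75.5% and 78.8% of all counts in the 18-month plasma libraries and 73.0% and 72.1% in those at 12 months. All younger plasma libraries had at most 66.9%. The part of this in the His-GTG share was not tested. The rank correlation of the His-GTG share with age was -0.659 (adjusted p = 0.130, permutation) and r -0.676 (adjusted p = 0.0590, permutation). Without the 2 mice at 18 months, the farthest from the median age, the rank correlation was -0.452 and r -0.462 (adjusted p = 0.314 and 0.276, permutation), so the relation was weaker without these mice. Without replicate 1 at 2 months the rank correlation was -0.774 and passed the threshold (adjusted p = 0.0498, permutation).

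In EV the mean share of His-GTG went from 17.8% at 2 months over 16.3%, 15.2% and 13.3% to 13.2% at 18 months, with a rank correlation of -0.562 and r = -0.524 (adjusted p = 0.245 and 0.307, permutation). EV replicate 1 at 12 months was the lowest of its fraction, at 9.11%, and replicate 2 of that age stood at 17.5%. The ages therefore overlapped.

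The mean share of Val-TAC was highest at 2 months in both fractions. In plasma it stood at 0.571%, 0.637% and 0.752% at 2 months and between 0.397% and 0.530% in the 11 older mice, with a rank correlation of -0.560 and r = -0.566 (adjusted p = 0.153 and 0.117, permutation). In EV it was 0.596%, 0.642% and 0.717% at 2 months and 0.357% to 0.592% from 6 to 12 months, with 0.464% and 0.786% at 18 months. EV replicate 2 at 18 months was thus the highest EV library for Val-TAC, and over all ages the rank correlation was -0.234 and r -0.045 (adjusted p = 0.665 and 0.905, permutation). Without 1 mouse this rank correlation ranged from -0.531 to -0.115. Without the 18-month mice the rank correlation was -0.630 in EV and -0.593 in plasma (adjusted p = 0.230 and 0.291, permutation).

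The means of Val-AAC and Val-CAC were highest at 8 months. The mean share of Val-CAC in plasma was 7.04% at 2 months, 7.71% at 6, 11.6% at 8, 7.53% at 12 and 7.20% at 18, and in EV 5.89%, 6.44%, 9.22%, 7.98% and 5.96%. Replicates 1 and 3 at 8 months were the highest, while replicate 2 of that age had 6.06% in EV and 8.95% in plasma. In EV, the rank correlation with age was 0.312 for Val-CAC and 0.375 for Val-AAC (adjusted p = 0.574 and 0.474, permutation), and 0.655 and 0.673 without the 18-month mice (adjusted p = 0.230 for both, permutation). Without 1 mouse the EV values ranged from 0.163 to 0.564 for Val-CAC and from 0.239 to 0.578 for Val-AAC. In plasma the rank correlation was 0.144 for Val-CAC and 0.241 for Val-AAC (adjusted p = 0.707 and 0.540, permutation). Pearson's r was 0.085 for Val-CAC and 0.121 for Val-AAC in EV, and -0.006 and 0.025 in plasma (adjusted p of at least 0.8294, permutation).

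The lysine isoacceptors did not pass either. The rank correlation was 0.085 for Lys-CTT and 0.247 for Lys-TTT in EV and 0.225 and 0.270 in plasma (adjusted p from 0.531 to 0.889, permutation), and r was -0.060, 0.203, 0.096 and 0.164 in the same order (adjusted p from 0.706 to 0.905, permutation). Mean Lys-CTT was highest at 8 months in both fractions, at 1.42% in EV and 1.28% in plasma, against 1.12% and 0.784% at 2 months.

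**Figure D5:**
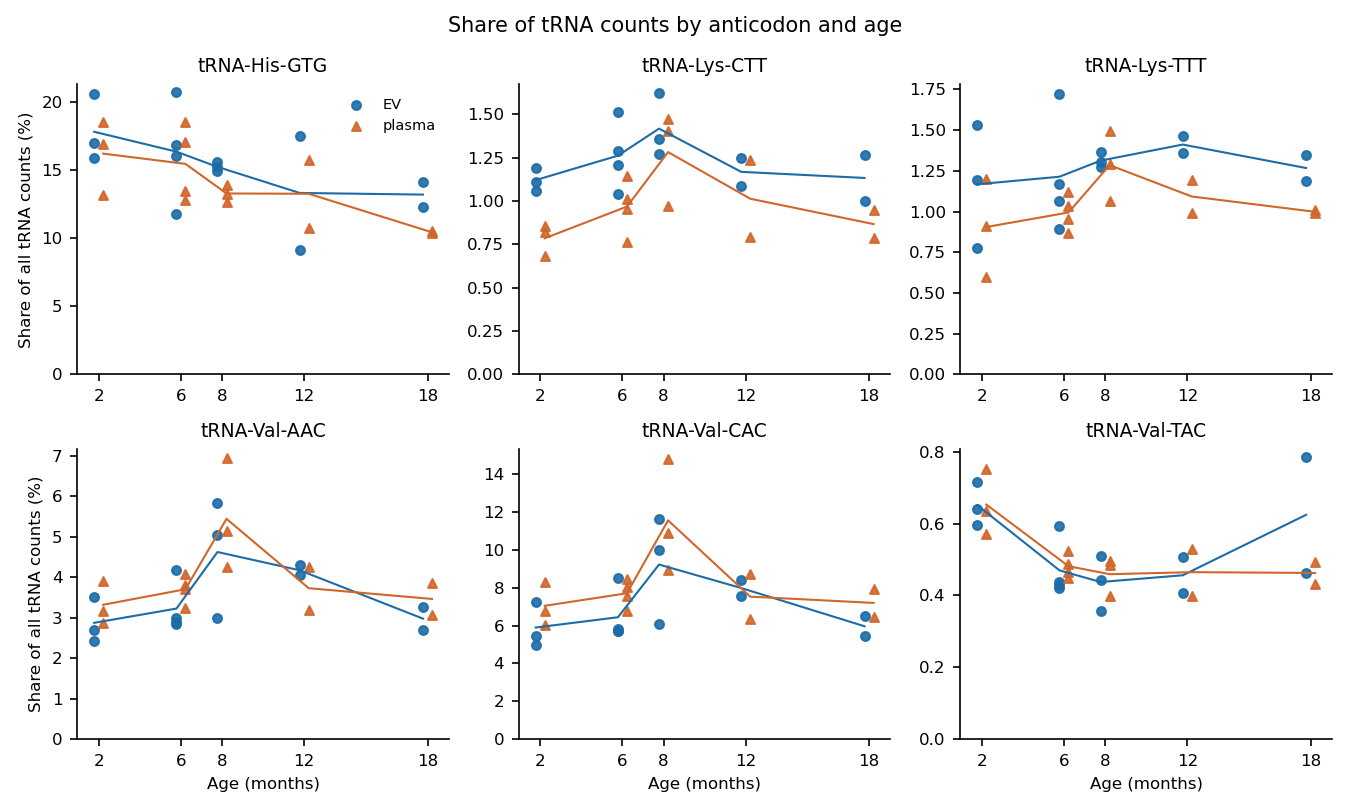
Share of all tRNA counts (%, y axis) by age in months (x axis) for the 6 anticodon sums. Circles are EV libraries, triangles plasma libraries, and lines join the means of each age. His-GTG is lowest at 18 months in plasma (10.3% and 10.5%), and Val-CAC is highest at 8 months.

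On counts across all RNAs, 0 of the 63 rows changed with age in EV and 0 in plasma (edgeR, 0% of 18570 and 0.0139% of 21632 RNAs called). At an unadjusted p under 0.05, 3 rows passed in EV and 1 in plasma, beside 1077 of 18570 and 1577 of 21632 RNAs. With DESeq2 0 of the 63 rows passed after adjustment in each. Of all RNAs, DESeq2 called 1 rising with age in EV, and 27 rising and 5 falling in plasma. The rows with the smallest p in EV were valine rows, tRNA-Val-CAC-7 at a log2 change of 0.14 ± 0.05 per month (SE, adjusted p = 0.752), tRNA-Val-AAC-5 at 0.12 ± 0.05 (adjusted p = 0.853) and tRNA-Val-AAC-4 at 0.083 ± 0.039 (adjusted p = 0.853). In plasma they were tRNA-Lys-CTT-1 at 0.067 ± 0.029 per month (adjusted p = 0.681), tRNA-Lys-CTT-14 at 0.068 ± 0.037 (adjusted p = 0.754) and tRNA-Lys-TTT-4 at 0.047 ± 0.026 (adjusted p = 0.755). On this scale 58 of the 63 rows had a positive value in EV and 62 in plasma, with medians of 0.079 and 0.047 per month. Scaled to tRNA rows, 23 and 1 did. Over all 51 anticodon sums the median was 0.083 per month in EV and 0.070 in plasma.

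Whether age acted differently in the 2 fractions was tested as an interaction. Of the 63 rows 0 passed (edgeR, 0% of 22323 RNAs). At an unadjusted p under 0.05, 0 of the 63 rows passed, beside 893 of all RNAs. With DESeq2 0 of the 63 rows passed after adjustment, where 1 RNA was called positive and 5 negative. The smallest p belonged to tRNA-Val-AAC-6, with -0.10 ± 0.06 per month (EV minus plasma, adjusted p = 1), a sequence with at most 45 counts in a library. The 63 rows lay between -0.099 and 0.078 per month, the 6 sums between 0.027 and 0.061, and 0 of 6 sums passed. Scaled to miRNAs, 3 of the 63 rows had a positive interaction, against 56 with TMM over all RNAs.

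Other RNAs of the same kind were read from a list beside these. Of the other 45 tRNA anticodons, 3 were higher in EV and 0 lower without the block, and 6 higher and 12 lower with the mouse as a block (edgeR). Their median log2 change was -0.16 without it, beside -0.22 for the 6 Val, Lys and His sums. With age 0 of the 45 passed in either fraction. Among other fragments that circulate, the Y RNA Rny3 (log2 change 1.81 ± 0.30, adjusted p = 6.87e-05), the vault RNA Vaultrc5 (1.81 ± 0.26, adjusted p = 8.61e-06) and 7SK RNA (Rn7sk, 1.41 ± 0.38, adjusted p = 0.00853) were higher in EV. The Y RNA Rny1 (0.48 ± 0.27, adjusted p = 0.258) and the 3 rows of the signal recognition particle RNA (Rn7s1, Rn7s2 and Rn7s6, 0.35 to 0.58, lowest adjusted p = 0.300) did not pass. None of these 7 rows passed with age.

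The SD of a share between mice was 14.4% (Lys-CTT) to 28.3% (Val-AAC) of its mean in EV and 18.7% (Val-TAC) to 27.5% (Val-CAC) in plasma, beside medians of 25.4% and 26.9% over all anticodons.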

How the data were processed

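Small RNA libraries of 14 EV and 14 plasma samples were analysed. The authors deposited estimated counts per RNA (46 rows held values that are not whole, none of them a Val, Lys or His row), rounded here before the count tests, and a signal table of the same counts scaled by the authors for depth (RPM). The submitters' processing notes name mm10 and R 4.0.4. For these libraries the study refers to an earlier report. The aligner, and how reads matching several tRNA copies were counted, are not given for them in the sources used here.

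RNAs with at least 1 RPM in 2 of 14 libraries of a fraction were tested with edgeR 4.0.16 (limma 3.58.1, R 4.3.3), with DESeq2 1.42.0 as an alternative, and p-values were adjusted over all RNAs tested (threshold 0.05). Shares, make-up and agreement were tested by exact sign flips (16384) or permutations (100000) with scipy 1.17.1 (Python 3.11.15, pandas 2.3.3, numpy 2.4.6), and figures were drawn with matplotlib 3.10.9. An SE of an edgeR fit is the size of the log2 change divided by the square root of the quasi-likelihood F statistic. Only the edgeR tests without the block were run on simulated data, with independent libraries and 1 fixed dispersion. The sign-flip and permutation tests, the block and DESeq2 were not checked in this way. Total counts per sample ran from 928651 to 52753818. SDs cover the 14 mice with all 5 ages together, so they include any difference between ages.

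The EV and plasma libraries of a mouse are paired by the labels, which state that the blood of 1 animal was 1 sample. Deviations from age means correlated between them at -0.04 to 0.71 over 51 anticodons, and 8 of 10 plasma libraries from ages with over 2 mice were closest to their own EV library. The others were 6-month replicates 2 and 3, with r of 0.22 and -0.04 to their own EV library. Their highest r with another EV library of that age was 0.31 and 0.36. These mice were left out only 1 at a time. Named were all anticodon sums, the most abundant row of each anticodon, called rows changed alike in every mouse (3 per direction) and the 3 rows of smallest p per age test. Rows called in the edgeR fits between fractions are named also where mice differed, as for tRNA-Lys-CTT-14, tRNA-Lys-CTT-7 and tRNA-Val-CAC-7. Alternatives covered scaling, filters, the mouse as a block, copies counted once and each mouse left out. Members and lists were chosen with earlier results of these data known.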

Additional observations from a re-analysis of the deposited data

Results flagged for a closer look

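The 2 groups at 6 months were the only ones with 4 libraries. Of 54 tests there for a library standing apart (Dixon's test), 3 found one, each in EV, and chance gives about 1 in 20, which is close to the number found. EV replicate 1 had 4.18% of tRNA counts on Val-AAC against 2.84% to 2.99% in the other 3 libraries, and 8.51% on Val-CAC against 5.71% to 5.80%. These 2 values share reads of tRNA-Val-AAC-1 and tRNA-Val-CAC-2 and are not independent. EV replicate 3 had 0.592% on Val-TAC against 0.420% to 0.438%.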

How the results depend on the processing

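The number of Val, Lys and His rows called between fractions was 1, and became 17 with RPM scaling, 52 with TMM over miRNA rows, 2 with TMM over tRNA rows, 10 with the replicate block, 12 with the block and TMM over tRNA rows together (added after the data were seen), 0 without a filter, 0 without the uncertain pairs and 0 to 1 without 1 mouse. With the block and TMM over tRNA rows, 5 rows were higher and 7 lower, where 15.7% and 3.73% of all RNAs were. Without a filter 3.01% and 2.31% of all RNAs were, and without the uncertain pairs 7.59% and 5.71%. Of the anticodon sums 0 were called, and 2, 6, 2 and 2 under RPM scaling, TMM over miRNA rows, the block, and the block with TMM over tRNA rows. All of these were lower in EV. In the same order, 18, 40, 14 and 10 of all 51 anticodons were lower and 1, 1, 6 and 7 higher. Signs turned for Lys-CTT (0.0800 with TMM over tRNA rows, 0.112 with the block too, -0.133 to 0.0390 without 1 mouse), Lys-TTT (0.0307 with both, -0.164 to 0.0397), tRNA-Lys-CTT-3 (0.0847, 0.110, -0.165 to 0.00585) and tRNA-Lys-TTT-1 (0.0537, 0.0442, -0.181 to 0.0158). For tRNA-Lys-CTT-7, TMM over miRNA rows gave -0.0969 without the block. Against all counts the share differences were -3.63 (His-GTG), -0.218 (Lys-CTT), -0.243 (Lys-TTT) and -0.140 points (Val-TAC), and without 1 mouse Val-TAC ranged from -0.00785 to 0.0190. With age, TMM over tRNA rows gave -0.0113 for tRNA-Lys-CTT-1, -0.0146 for tRNA-Lys-CTT-14 and -0.0255 for tRNA-Lys-TTT-4 in plasma, and TMM over miRNA rows -0.0133 for the interaction of tRNA-Val-CAC-7. Correlations of shares with age turned in EV for Lys-CTT (r -0.0598, copies once -0.187, uncertain pairs out -0.151, without 1 mouse -0.0394 to 0.341) and Val-TAC (all counts 0.0315, pairs out 0.0468), and in plasma for Val-CAC (r -0.00567, once -0.0697, pairs out -0.144, without 1 mouse -0.0422 to 0.344), Lys-CTT (pairs out -0.0360) and Val-AAC (pairs out -0.0828). Without 1 mouse 0 to 1 shares changed with age in plasma. The cause was not tested for any of these. The block changed no call of an age interaction. Rows of few reads, such as tRNA-Val-AAC-6, limit what these depths show.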
